A study of Mus musculus with 9 samples.

Results

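The mitochondrial chaperones and proteases described here are 10 genes taken by symbol from the deposited annotation of 56748 genes. They are the chaperonin genes Hspd1 and Hspe1, the HSP70 and HSP90 family genes Hspa9 and Trap1, the matrix protease genes Lonp1, Clpp and Clpx, and the inner membrane protease genes Yme1l1, Afg3l2 and Spg7. All 10 passed the filter on low counts and were among the 14510 genes tested. The libraries came from Hepa1-6, an established mouse hepatoma cell line, grown in DMEM with fetal bovine serum and penicillin-streptomycin, and were 3 from control cells, 3 from cells given 37 µg/mL lefamulin and 3 from cells given 37 µg/mL tiamulin, with a treatment of 2 days. Lefamulin and tiamulin are pleuromutilins, antibiotics that bind the large subunit of the bacterial ribosome, with a shared tricyclic core and a different side chain. The labels give the controls as left without treatment and the methods of the study give them a vehicle, so if the controls had none, vehicle and drug cannot be told apart. All groups are of a single cell line, and each drug was used at a single concentration and time. The comparisons ask whether either pleuromutilin changed the transcripts of these genes, and whether the drugs differed.

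Most mitochondrial proteins are made in the cytosol, imported unfolded, and folded in the matrix by the HSP70 protein encoded by Hspa9 and by the chaperonin built from the products of Hspd1 and Hspe1. Proteins that are damaged or left without a partner are degraded by ATP-dependent proteases, LONP1 and the CLPXP complex in the matrix and the YME1L1 and AFG3L2 complexes in the inner membrane. In the mitochondrial unfolded protein response, trouble with protein folding or protein synthesis inside the organelle is relayed to the nucleus, with the transcription factors ATF4, ATF5 and CHOP (the product of Ddit3) tied to the relay and chaperone and protease genes among its known targets.

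Library totals ran from 15568887 to 18008105 counts. The tiamulin 2 library stood apart from its group: its counts differed from those of tiamulin 1 and tiamulin 3 with a chi-square per degree of freedom of 18.1 and 20.6, against 2.88 to 7.57 for the other 7 pairs of libraries of the same group. Its genes also followed GC content. Spearman's rho between GC content and the deviation from the group was 0.694 for this library, against -0.533 for tiamulin 1, -0.577 for tiamulin 3, 0.494 for control 1 and -0.492 for control 2. Deviations were from the mean of the group's 3 libraries, so the values within a group are not independent of each other. The members' calls and the counts over gene and marker lists are therefore also given without tiamulin 2, and with offsets that take out the trends with GC content and length. Of 12 hepatocyte or hepatoma markers, 9 had more than 3 counts and Serpina1a was at 0 in every library. Their summed level was 4034 to 4315 CPM, counts scaled to a common library size, in control, 3947 to 4157 in lefamulin and 3858 to 4488 in tiamulin libraries. The sum covered markers that moved in opposite directions: of 8 tested, 1 was raised and 2 lowered under lefamulin, and 1 raised and 3 lowered under tiamulin (edgeR adjusted p below 0.05). With the offsets these counts were 1 and 4 under lefamulin and 2 and 3 under tiamulin, and without tiamulin 2 1 and 5, and 2 and 5. Under tiamulin they ran from -0.81 for Afp, which with Alb and Fgb fell, to 0.37 for Krt18, which rose, and under lefamulin Alb and Hnf4a fell by 0.24 and 0.21 and Trf rose by 0.27 on the log2 scale. The summed level of 12 leukocyte markers was 12.2 to 12.4 CPM in control libraries, 13.3 to 19.6 under lefamulin and 17.0 to 22.5 under tiamulin, with Adgre1, Tyrobp, Cd3e and Cd3g at 0 throughout. This sum too covered both directions: of 5 tested, 2 were raised and 1 lowered under each drug, with log2 fold changes from -1.33 to 2.45 under lefamulin and -1.67 to 2.12 under tiamulin. Both alternatives gave the same counts under lefamulin and 2 raised and 2 lowered under tiamulin. The lowest log2 fold change under tiamulin was -1.66 with the offsets and -3.45 without tiamulin 2. Endothelial markers, 6 genes, summed to 2.31 to 2.83, 6.49 to 7.28 and 4.85 to 6.83 CPM, and fibroblast markers, 7 genes, to 1503 to 1585, 1156 to 1207 and 1056 to 1147 CPM, in the same order of groups. Of 2 endothelial markers tested, 2 were raised under lefamulin and 1 under tiamulin and 0 lowered, and of 3 fibroblast markers tested, 2 were lowered under lefamulin and 1 under tiamulin and 0 raised, also with the offsets and without tiamulin 2. Beside these marker counts, 13.1% of all genes tested were called under lefamulin and 16.4% under tiamulin. With the offsets the shares were 23.7% and 26.8%, and without tiamulin 2 24.9% and 23.1%. The part of these markers in the results below was not tested.

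Hspd1 encodes HSP60, the barrel of the mitochondrial chaperonin, and Hspe1 encodes HSP10, its lid. The genes lie head to head on chromosome 1, Hspd1 (ENSMUSG00000025980) on the minus strand from 55116994 to 55127402 and Hspe1 (ENSMUSG00000073676) on the plus strand from 55127291 to 55130466 in the deposited tables, so that their spans overlap by 112 bases. The sources used here do not give the strand setting of the counting, and without strand the reads of the overlap cannot be assigned to either gene. The promoter windows of the genes hold a pair of elements named in work on heat shock and on the mitochondrial unfolded protein response. Both are given from RefSeq promoters on GRCm38.p6, plus strand, 5′ to 3′, with the matched letters in capitals, because both genes have them in their windows and their values are compared next.
Heat shock element, chr1:55088053-55088082: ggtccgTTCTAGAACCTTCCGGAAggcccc
CHOP-C/EBP core, chr1:55087937-55087966: acgccggggcccTGCAATctgcatgcggcg

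The capitals of the heat shock element cover 18 bases and are overlapping matches to GAANNTTCNNGAA or its complement, which end 72 bases before the RefSeq start of Hspe1 at 55088148. RefSeq lists starts of Hspd1 at 55088243 and 55087932, on either side of it. Both elements lie before the Hspd1 start at 55087932, between it and the start of Hspe1, and downstream of the Hspd1 start at 55088243. A promoter here means 250 bases before and 50 bases after a RefSeq start, and both strands were searched. The 3-unit heat shock element occurred in 0.603% of 32851 promoters and its 2-unit form GAANNTTC, which overlaps it, in 7.86%. TGCAAT, the letters of the CHOP-C/EBP core, occurred in 8.40%. Promoters of 8 of the 10 members were searched, 9 promoters in all, and those of Hspa9 and Afg3l2 were not. The heat shock element and TGCAAT matched at Hspd1 and Hspe1 and at no other member searched. TGATGNAA, the core bound by ATF4 with C/EBP factors, occurred in 3.97% of promoters and in 0 of the 9 member promoters searched. GCGCANGCGC, a form of the NRF1 site, occurred in 4.60% and matched at Hspd1 and Spg7, and CCAAT occurred in 37.4% and matched at Hspd1, Yme1l1 and Clpx. A match is a run of letters in the window and says nothing of whether a factor was bound in these cells.

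Levels of the members spanned a wide range, here in FPKM, the deposited counts per length and library total (plot of the level per length). In control libraries Hspd1 was at 472 ± 16.5 FPKM (SD, n = 3 here and for the other means), Hspa9 at 194 ± 3.61, Hspe1 at 168 ± 13.5, Lonp1 at 87.0 ± 2.72, Trap1 at 52.0 ± 1.92 and Clpp at 29.4 ± 2.25. Afg3l2 followed at 17.2 ± 0.0522 FPKM, Clpx at 13.8 ± 0.414, Yme1l1 at 13.4 ± 0.852 and Spg7 at 13.1 ± 0.694. The control ranges of neighbours in this order did not overlap from Hspd1 down to Afg3l2 and Clpx, whereas those of Clpx, Yme1l1 and Spg7 overlapped and give no order. The folding chaperones Hspd1, Hspa9 and Hspe1 were thus the most abundant members per length, and the order of the means down to Afg3l2 was the same in each treated group.

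**Figure D1:**
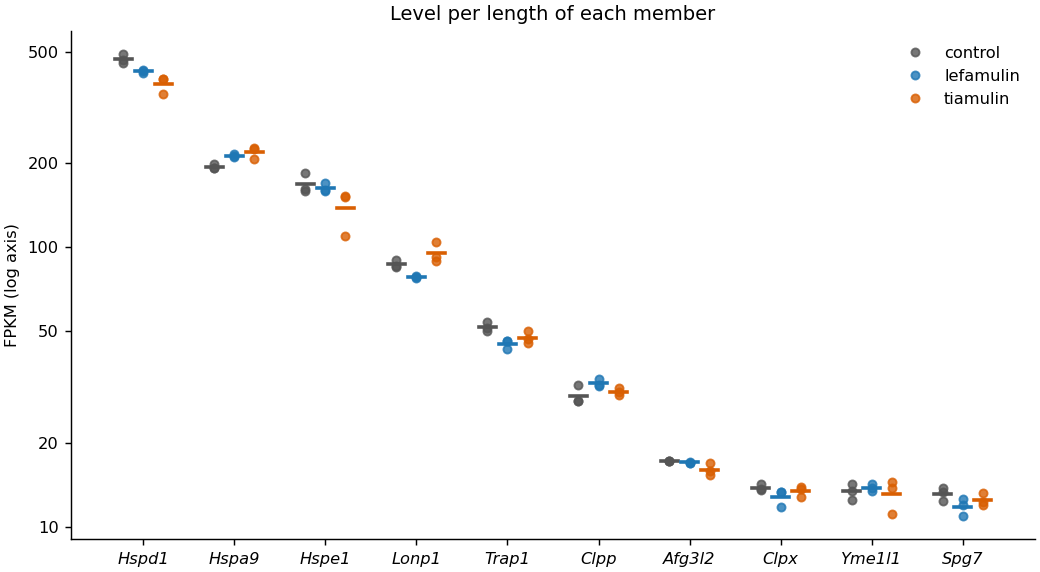
Level of each member in FPKM on a log axis, with 1 point per library, colours for the 3 groups and a short line at each group mean. Hspd1 lies highest in every group, between 354 and 490 FPKM, and Clpx, Yme1l1 and Spg7 lie together at the low end in control libraries.

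Under lefamulin the members stayed within 0.20 of the controls on the log2 scale. Trap1, an HSP90 family chaperone of the matrix, fell, and no other member passed the test: 0 of 10 were raised and 1 of 10 was lowered, where 7.09% of all genes tested were raised and 6.00% lowered (edgeR's quasi-likelihood test, Benjamini-Hochberg adjusted p below 0.05). At an unadjusted p below 0.05 there were 1 member higher and 3 lower, 4 of 10 beside 27.2% of all genes, and DESeq2 also called 0 raised and 1 lowered, 1 of 10 beside 14.0% of all genes. Past both thresholds of the study, on the adjusted p and on a log2 change of more than 1 either way, were 0 of 10 members and 1.51% of all genes. The member log2 fold changes lay between -0.20 and 0.15 with a median of -0.08, beside a median of -0.00 over all genes.

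Tiamulin lowered Hspd1, the chaperonin, and raised Hspa9, the matrix HSP70. These were 1 of 10 members raised and 1 of 10 lowered, where 9.08% and 7.34% of all genes were. At an unadjusted p below 0.05 there were 2 members higher and 3 lower, 5 of 10 beside 29.8% of all genes, and DESeq2 called 1 raised and 2 lowered, 3 of 10 beside 17.5% of all genes, with Hspe1 as the addition. Past both thresholds were 0 of 10 members and 1.78% of all genes. The member log2 fold changes lay between -0.29 and 0.18 with a median of -0.06, beside 0.00 over all genes.

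**Figure D2:**
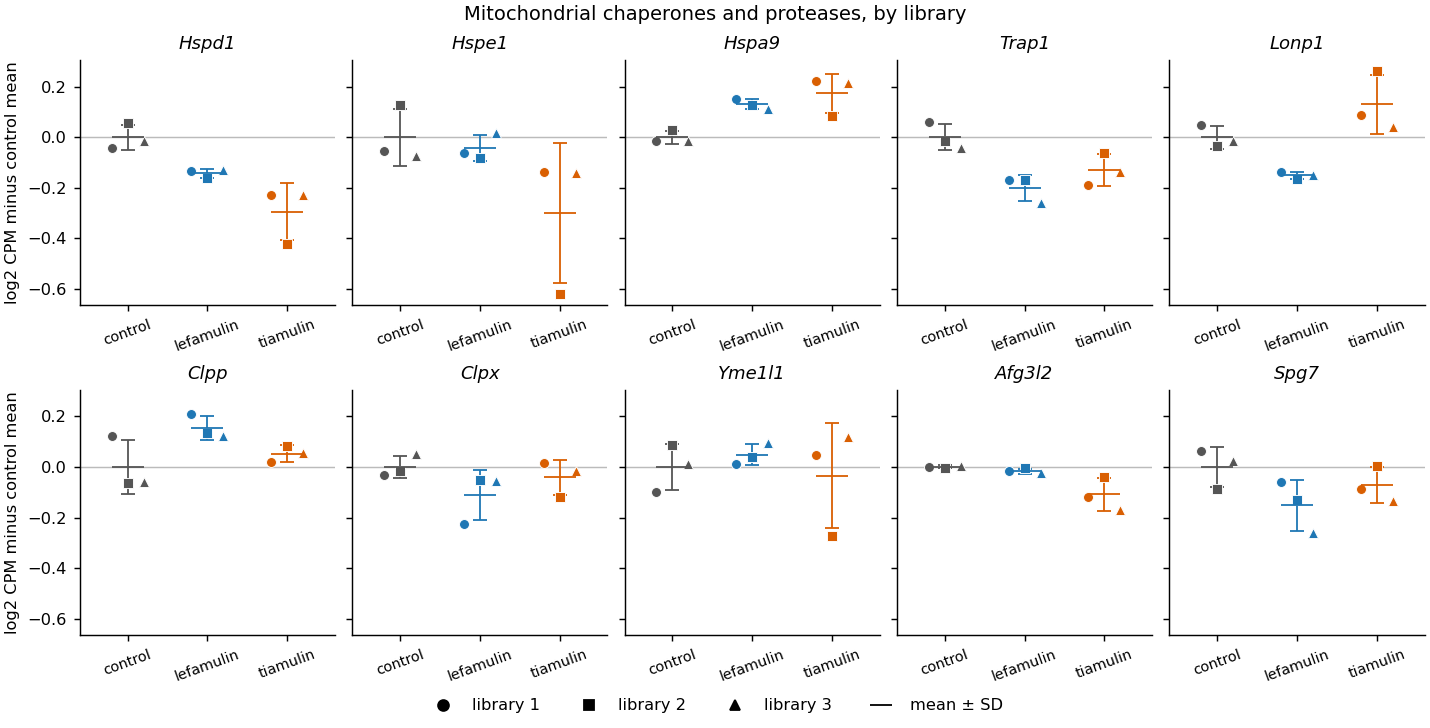
Value of each member in every library, as log2 CPM minus the control mean, with circles, squares and triangles for libraries 1, 2 and 3 and bars for the mean ± SD of each group. Tiamulin 2 has the lowest value of Hspd1, Hspe1 and Yme1l1 and the highest of Lonp1 among the 9 libraries.

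The chaperonin genes come first. Hspd1 had 1217, 1301 and 1241 CPM in control libraries 1 to 3, 1141, 1119 and 1145 CPM in lefamulin libraries and 1068, 935 and 1068 CPM in tiamulin libraries. All 6 treated libraries were lower than the lowest control, and the tiamulin libraries were lower than the lefamulin libraries. Under tiamulin Hspd1 fell by 18.3%, a log2 fold change of -0.29 (SE 0.06, 95% interval -0.41 to -0.17, edgeR adjusted p = 0.00284). This call held in all 20 alternatives, with log2 fold changes between -0.32 and -0.23, and the difference was -0.23 without tiamulin 2 (adjusted p = 3.16e-05). Under lefamulin the log2 fold change was -0.14 (SE 0.06, interval -0.26 to -0.02), with an edgeR adjusted p = 0.119 that missed the threshold. It passed in 5 of 20 alternatives, among them the fit with offsets for GC content and length (-0.18, adjusted p = 0.000233) and the fit without tiamulin 2 (adjusted p = 0.00189).

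Hspe1 had 239.8, 272 and 236 CPM in control, 238, 235 and 252 CPM in lefamulin and 226, 162 and 225.5 CPM in tiamulin libraries. Lefamulin libraries overlapped the controls, and the tiamulin libraries lay below both other groups, with tiamulin 2 far below its fellows. The log2 fold change under tiamulin was -0.29 (SE 0.10, interval -0.51 to -0.06), as large as that of Hspd1, yet with an edgeR adjusted p = 0.0822. Without tiamulin 2 it was -0.14 (adjusted p = 0.0517), with the offsets it was -0.25 (adjusted p = 0.00423), and the adjusted p was 0.048 without tiamulin 1 and 0.0444 without tiamulin 3. Under lefamulin it was -0.05 (SE 0.10, edgeR adjusted p = 0.827). Over the 9 libraries Hspd1 and Hspe1 had the closest values of any pair of members, with a Pearson correlation of log2 CPM of 0.884, given as a description since the pair shares libraries, groups and a low GC content of 46.8% and 45.5%.

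Both chaperonin genes have copies in the mouse genome that could take or give reads. The annotation names 12 pseudogenes of Hspd1, Hspe1 and Hspa9, of which 10 had at most 3 counts in every library. The exceptions were Hspd1-ps3 with 181 to 385 counts, 1.01% to 2.06% of those of Hspd1, and Hspe1-ps3 with up to 4 counts. Hspd1-ps3 did not pass the test under tiamulin (log2 fold change -0.26, edgeR adjusted p = 0.452). Values of Hspd1 and Hspe1 are uncertain by the reads that the counting could have assigned to such copies.

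Hspa9 encodes mortalin, the HSP70 that draws proteins through the import channel and folds them. Its deposited position is chromosome 18, 35070467 to 35087410, minus strand (ENSMUSG00000024359). It had 832, 858 and 833 CPM in control, 934, 919 and 908 CPM in lefamulin and 982, 892 and 976 CPM in tiamulin libraries. Every treated library lay above every control library, and the drugs overlapped. Tiamulin raised Hspa9 by a log2 fold change of 0.18 (SE 0.05, interval 0.07 to 0.28, edgeR adjusted p = 0.0276), and the value was 0.22 without tiamulin 2 (adjusted p = 4.44e-05). The call held in 12 of 20 alternatives and in 3 of the 9 that left out a library. The edgeR adjusted p was 0.0927, 0.054 and 0.115 without controls 1, 2 and 3, 0.0535 without lefamulin 2, and 0.0987 and 0.0813 without tiamulin 1 and 3. Under lefamulin the log2 fold change was 0.13 (SE 0.05, interval 0.02 to 0.24, edgeR adjusted p = 0.109). It passed in 5 of 20 alternatives, among them the fit without tiamulin 2 (edgeR adjusted p = 0.00412). Hspa9 and Hspd1, the partners in matrix folding, thus lay on opposite sides of the controls in all 6 treated libraries.

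Trap1 encodes the mitochondrial HSP90, a chaperone of the matrix that also tunes respiratory enzymes. It lies on chromosome 16 from 3857835 to 3895691, minus strand (ENSMUSG00000005981). It had 139.8, 133 and 130.4 CPM in control, 119, 119.5 and 112 CPM in lefamulin and 118, 129 and 122 CPM in tiamulin libraries. All treated libraries lay below all controls. Lefamulin lowered Trap1 by a log2 fold change of -0.20 (SE 0.06, interval -0.33 to -0.07, edgeR adjusted p = 0.0400). That call held in 12 of 20 alternatives and in 3 of the 9 that left out a library, being lost when any control or lefamulin library was left out, at edgeR adjusted p between 0.081 (without control 3) and 0.157 (without control 1). The tiamulin value of Trap1 was -0.13 (SE 0.06, edgeR adjusted p = 0.161), and it was -0.16 without tiamulin 2 (adjusted p = 0.0247).

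Lonp1 encodes the Lon protease, which degrades oxidized and misfolded proteins of the matrix. It lies on chromosome 17 from 56921297 to 56933887, minus strand (ENSMUSG00000041168). It had 396, 373 and 378 CPM in control, 348, 341 and 344 CPM in lefamulin and 406, 458 and 394 CPM in tiamulin libraries. The lefamulin libraries lay below all controls, and the tiamulin libraries overlapped the controls. Neither drug differed from control by the test, with log2 fold changes of -0.15 (SE 0.06, edgeR adjusted p = 0.116) for lefamulin and 0.13 (SE 0.06, adjusted p = 0.153) for tiamulin, which became 0.06 without tiamulin 2. The lefamulin difference passed in 5 of 20 alternatives, among them the fit without tiamulin 2 (edgeR adjusted p = 0.00325). The tiamulin difference passed in 1 of 20. Between the drugs the test was passed, as given below.

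Clpp and Clpx encode the proteolytic chambers and the unfoldase of CLPXP, which degrades soluble matrix proteins. Clpp (ENSMUSG00000002660; chromosome 17, 57297305 to 57303188, plus strand) had 39.4, 34.6 and 34.6 CPM in control, 41.7, 39.6 and 39.3 CPM in lefamulin and 36.6, 38.3 and 37.5 CPM in tiamulin libraries. Clpx (ENSMUSG00000015357; chromosome 9, 65201542 to 65237940, plus strand) had 47.4, 47.9 and 50.2 CPM in control, 41.5, 46.8 and 46.6 CPM in lefamulin and 49.0, 44.7 and 47.9 CPM in tiamulin libraries. Neither gene passed the test in any comparison or in any of 20 alternatives. Their lefamulin log2 fold changes pointed apart, 0.15 (SE 0.08) for Clpp with groups that overlapped and -0.11 (SE 0.07) for Clpx with every lefamulin library below the controls.

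No inner membrane protease gene passed the test in the comparisons with control. Yme1l1 (ENSMUSG00000026775; chromosome 2, 23046381 to 23089272, plus strand) encodes the protease that faces the intermembrane space. It had 100.5, 114 and 108 CPM in control, 108, 111 and 115 CPM in lefamulin and 111, 89.1 and 117 CPM in tiamulin libraries, so that all groups overlapped and tiamulin 2 was the lowest of the 9. Afg3l2 (ENSMUSG00000024527; chromosome 18, 67537834 to 67582242, minus strand) and Spg7 (ENSMUSG00000000738; chromosome 8, 123789681 to 123824499, plus strand) encode AFG3L2 and paraplegin, the subunits of the protease that faces the matrix. Afg3l2 had 171, 170.1 and 171 CPM in control, 169, 170.1 and 168 CPM in lefamulin and 157, 166 and 152 CPM in tiamulin libraries. The tiamulin libraries lay below both other groups, with a log2 fold change against control of -0.11 (SE 0.05, edgeR adjusted p = 0.194) that was -0.14 without tiamulin 2 (adjusted p = 0.0238). Spg7 had 62.2, 56.1 and 60.6 CPM in control, 57.1, 54.3 and 49.7 CPM in lefamulin and 56.0, 59.8 and 54.3 CPM in tiamulin libraries. Its groups overlapped, and its log2 fold changes were -0.15 (SE 0.07, edgeR adjusted p = 0.211) under lefamulin and -0.07 (SE 0.07, adjusted p = 0.563) under tiamulin.

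**Figure D3:**
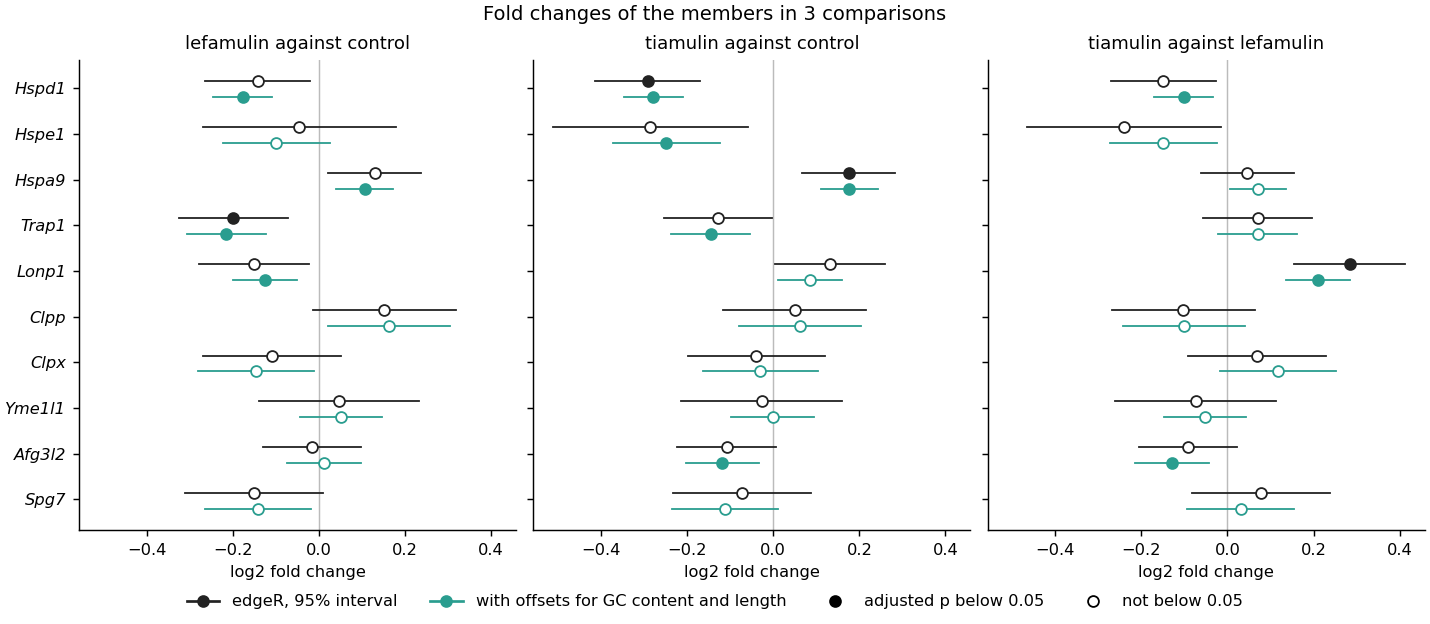
Log2 fold change of each member with its 95% interval in the 3 comparisons, black for the edgeR fit and green for the fit with the GC and length offsets, filled where the adjusted p is below 0.05. No point lies beyond -0.29 or 0.29, Hspd1 under tiamulin is filled in both fits, and more members are filled with the offsets.

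The GC and length offsets narrowed the intervals and made more calls among the members and among all genes, as the plot of fold changes shows for the members. They were fitted to each library's deviation from the mean of all 9 libraries. Any drug effect that runs with GC content or length is thus taken out too, and the test treats the offsets as known. Under lefamulin 4 of 10 members were then called, beside 23.7% of all genes, Hspa9 higher and Hspd1, Lonp1 and Trap1 lower. Under tiamulin 5 of 10 were called, beside 26.8% of all genes, Hspa9 higher and Hspd1, Hspe1, Trap1 and Afg3l2 lower. Leaving out tiamulin 2 in place of the offsets gave 4 calls under each drug, the same members for lefamulin and Hspa9, Hspd1, Trap1 and Afg3l2 for tiamulin, beside 24.9% and 23.1% of all genes. No member was past a log2 fold change of 1 in either direction.

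The drugs were then compared with each other at the same concentration and time in all 10 members. Lonp1 alone differed, 1 of 10 members higher under tiamulin and 0 of 10 lower, where 2.85% and 2.05% of all genes were (edgeR, p adjusted over all genes tested). Past both thresholds were 0 of 10 members and 0.227% of all genes. At an unadjusted p below 0.05 there were 1 member higher and 2 lower, 3 of 10 beside 21.6% of all genes, and DESeq2 also called 1 higher and 0 lower, 1 of 10 beside 9.44% of all genes. With the offsets 3 of 10 members were called beside 13.1% of all genes, and without tiamulin 2 1 of 10 beside 8.79%. The Lonp1 level under tiamulin was 1.22 times that under lefamulin, a log2 fold change of 0.28 (SE 0.06, interval 0.16 to 0.41, edgeR adjusted p = 0.0161), and the groups did not overlap. Without tiamulin 2 it was 0.22 (adjusted p = 0.00103) and with the offsets 0.21 (adjusted p = 0.000199). It held in 15 of 20 alternatives, and the edgeR adjusted p was 0.0748, 0.0867 and 0.0836 without lefamulin 1, 2 and 3 0.0581 when the 2 drug groups were fitted alone and 0.0616 with the replicate block.

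For the other 9 members the difference between the drugs was not shown, which does not make them alike. The intervals still allow log2 differences of -0.27 to -0.03 for Hspd1 and -0.47 to -0.01 for Hspe1, whose tiamulin libraries all lay below the lefamulin libraries (edgeR adjusted p = 0.148 and 0.203). Intervals are for a single gene, whereas calls use p adjusted over all genes. An interval can therefore lie on a single side of no change without a call. For Hspa9 the interval was -0.06 to 0.15, for Trap1 -0.06 to 0.20, for Clpp -0.27 to 0.06 and for Clpx -0.09 to 0.23. For Yme1l1 it was -0.26 to 0.11, for Afg3l2 -0.21 to 0.02 and for Spg7 -0.08 to 0.24. With the offsets Hspd1 (-0.10, adjusted p = 0.0427) and Afg3l2 (-0.13, adjusted p = 0.0390) were also lower under tiamulin than under lefamulin. Hspe1, lower under tiamulin, and Hspa9, higher, each passed in 1 of 20 alternatives. The median over the 10 members was -0.01, beside 0.00 over all genes.

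The deviation of tiamulin 2 ran with the GC content of the members. In log2 CPM, tiamulin 2 lay below the mean of tiamulin 1 and 3 by -0.35 for Yme1l1, the member of lowest GC content (38.0%), by -0.12 for Clpx, -0.48 for Hspe1, -0.13 for Hspa9 and -0.19 for Hspd1, all with a GC content of 46.8% or less. It lay above that mean by 0.11 for Afg3l2, 0.10 for Trap1, 0.12 for Spg7, 0.20 for Lonp1 and 0.05 for Clpp, with GC contents of 47.4% to 57.8%. Tiamulin 1 and 3 differed from each other by -0.07 to 0.05, with both signs in each of these sets of 5. The split was not particular to tiamulin 2: control 1 lay below control 2 for the same 5 members of lower GC content, by -0.18 for Yme1l1 and Hspe1 to -0.01 for Clpx, and above it for the other 5, by 0.01 for Afg3l2 to 0.19 for Clpp. The tiamulin 2 values therefore enlarged the tiamulin difference of Hspd1, Hspe1 and Lonp1 from control and shrank that of Hspa9, Trap1 and Afg3l2.

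**Figure D4:**
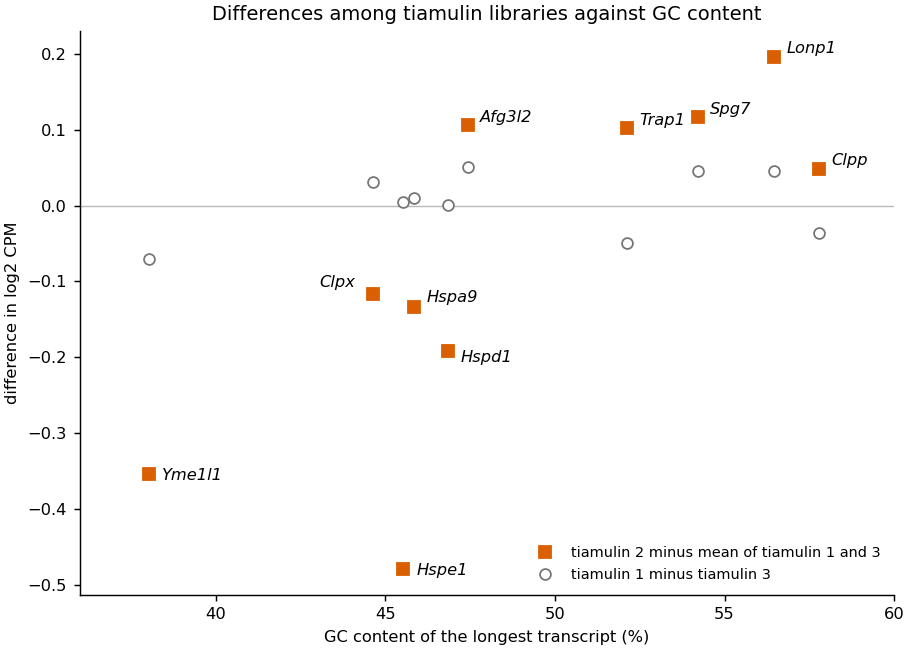
Difference in log2 CPM between tiamulin 2 and the mean of tiamulin 1 and 3 (squares) and between tiamulin 1 and 3 (open circles), against the GC content of each member's longest transcript in percent. The squares of the 5 members with the lowest GC content lie below 0 and those of the other 5 above it, and the circles stay between -0.07 and 0.05.

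Genes whose products work in a fixed complex were also set against each other within a library, as log2 ratios of FPKM. Hspd1 to Hspe1 was 1.49 ± 0.07 in control, 1.39 ± 0.04 in lefamulin and 1.495 ± 0.17 in tiamulin libraries (SD, n = 3), with 1.69 in tiamulin 2 and 1.40 in each of its fellows. Clpp to Clpx was 1.09 ± 0.14 in control, 1.35 ± 0.15 in lefamulin and 1.18 ± 0.10 in tiamulin libraries. Its lefamulin values of 1.52, 1.27 and 1.27 lay above its control values of 1.25, 1.04 and 0.98, at p = 0.1 in a two-sided exact permutation test, the smallest p that 3 against 3 libraries allow. Afg3l2 to Spg7 was 0.39 ± 0.07, 0.53 ± 0.10 and 0.35 ± 0.01, and tiamulin lay below lefamulin at the same smallest p of 0.1 in the exact permutation test. Hspa9 to Grpel1, its nucleotide exchange factor, was 3.73 ± 0.05, 3.67 ± 0.06 and 3.76 ± 0.11. With a smallest p of 0.1 none of these 12 comparisons could pass 0.05.

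Around the members, the 10 partners and co-chaperones did not pass the test in any comparison, with 0 of 10 raised and 0 of 10 lowered under either drug (edgeR) and medians of 0.02 and 0.02. With the offsets 1 was raised and 0 lowered under tiamulin and 0 of either under lefamulin, and without tiamulin 2 1 was raised and 0 lowered under lefamulin and 0 of either under tiamulin. Of all genes tested, 13.1% were called under lefamulin and 16.4% under tiamulin in the edgeR fit. These shares were 23.7% and 26.8% with the offsets, and 24.9% and 23.1% without tiamulin 2. Grpel1 had log2 fold changes of 0.19 (SE 0.07, edgeR adjusted p = 0.0957) under lefamulin and 0.14 (SE 0.07, adjusted p = 0.207) under tiamulin, with all treated libraries above the controls. Dnaja3, a co-chaperone of HSPA9, was at -0.05 (SE 0.06) and 0.15 (SE 0.06). Of 20 other proteases and quality control genes, 0 were raised and 2 lowered under lefamulin, and 1 was raised and 3 lowered under tiamulin. With the offsets these counts were 0 and 4 under lefamulin and 2 and 4 under tiamulin, and without tiamulin 2 0 and 4, and 1 and 4. Pitrm1, which degrades cleaved targeting peptides, fell under both drugs, by 0.43 and 0.51 on the log2 scale (edgeR adjusted p = 0.000401 and 7.62e-05). Immp1l, an inner membrane peptidase, fell by 0.54 under lefamulin (adjusted p = 0.0248), Phb, a prohibitin scaffold of the inner membrane proteases, fell by 0.27 under tiamulin (adjusted p = 0.00425), and Afg1l rose by 0.45 under tiamulin (adjusted p = 0.0172). Afg3l1, the paralog of Afg3l2, was at -0.12 and -0.06, and Oma1, the stress-activated inner membrane protease, at -0.03 and -0.15, and neither passed.

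Of 16 mitochondrial and integrated stress response genes tested, 9 were raised and 0 lowered under lefamulin and 11 raised and 0 lowered under tiamulin, with median log2 fold changes of 0.36 and 0.51. With the offsets 10 were raised and 1 lowered under lefamulin and 11 and 0 under tiamulin, and without tiamulin 2 11 and 1, and 11 and 0. The shares of all genes called under lefamulin and tiamulin were 13.1% and 16.4%. They were 23.7% and 26.8% with the offsets, and 24.9% and 23.1% without tiamulin 2. Ddit3 had 33.2, 31.0 and 31.8 CPM in control, 82.0, 85.0 and 85.1 CPM in lefamulin and 71.8, 79.5 and 69.6 CPM in tiamulin libraries, log2 fold changes of 1.39 and 1.2 (edgeR adjusted p = 2.5e-08 and 7.94e-08). Atf4 had 451, 439 and 427 CPM in control, 545, 528 and 526 CPM in lefamulin and 563, 660.0 and 572 CPM in tiamulin libraries, log2 fold changes of 0.28 and 0.45 (adjusted p = 0.00801 and 0.000196). Atf5 rose under tiamulin by 0.47 (SE 0.11, edgeR adjusted p = 0.0101), from 105, 85.1 and 98.0 CPM in control to 117, 161 and 119.7 CPM. The 161 CPM of tiamulin 2 lay far above its fellows and enlarged this difference. Under lefamulin Atf5 had a log2 fold change of 0.21 (SE 0.11, edgeR adjusted p = 0.252). Chac1, a glutathione-degrading target of the pathway, rose by 1.34 and 1.71, Trib3, a pseudokinase that it induces, by 1.16 and 1.34, and the stress cytokine Gdf15 by 0.95 and 0.78 (edgeR adjusted p between 3.28e-08 and 0.000103). The members and these genes were measured in the same libraries against the same controls, and whether the lists differ was not tested.

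**Figure D5:**
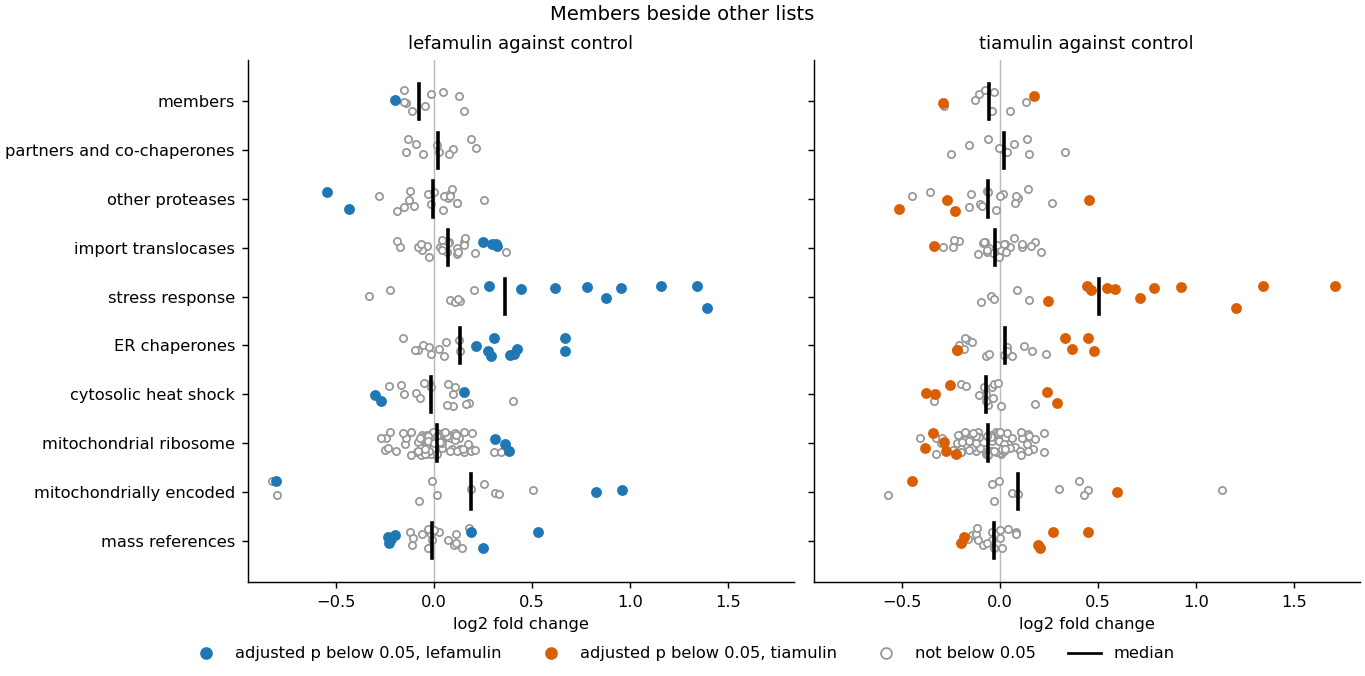
Log2 fold change of each gene of the members and of 9 other lists under lefamulin (left) and tiamulin (right), filled where the edgeR adjusted p is below 0.05, with a black line at each list's median. The members lie between -0.29 and 0.18, and the stress response genes reach 1.39 under lefamulin and 1.71 under tiamulin.

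Chaperones of other compartments gave mixed counts. Of 20 endoplasmic reticulum chaperone and quality control genes, 9 were raised and 0 lowered under lefamulin and 4 raised and 2 lowered under tiamulin. The offsets gave 8 raised and 3 lowered under lefamulin and 6 and 5 under tiamulin, and leaving out tiamulin 2 gave 10 and 1, and 6 and 5. Hspa5, the reticulum counterpart of Hspa9, rose by 0.67 and 0.33 (SE 0.05 each, edgeR adjusted p = 6.42e-07 and 0.000236), and was lower under tiamulin than under lefamulin (-0.33, adjusted p = 0.00133). Sdf2l1 rose by 0.67 and 0.48, Herpud1 by 0.42 and 0.37 and Sel1l by 0.30 and 0.45, and each passed the edgeR test under both drugs. Of 19 cytosolic heat shock genes tested, 1 was raised and 2 lowered under lefamulin and 2 raised and 3 lowered under tiamulin. The offsets gave 2 raised and 5 lowered under lefamulin and 3 and 6 under tiamulin, and leaving out tiamulin 2 gave 4 and 5, and 2 and 6. For both lists the shares of all genes called under lefamulin and tiamulin were 13.1% and 16.4%. They were 23.7% and 26.8% with the offsets, and 24.9% and 23.1% without tiamulin 2. Hspa8, the constitutive cytosolic HSP70, fell by 0.30 under lefamulin (SE 0.04, edgeR adjusted p = 0.000389). Under tiamulin Dnaja1 fell by 0.38 and Hsph1 by 0.33, both co-chaperones of the cytosolic HSP70, and Hspa4l rose by 0.29 (edgeR adjusted p = 0.00091, 0.00041 and 0.00939).

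Among other mitochondrial genes, 4 of 26 import translocase genes were raised and 0 lowered under lefamulin, and 0 were raised and 1 lowered under tiamulin. With the offsets these counts were 5 and 1 under lefamulin and 1 and 2 under tiamulin, and without tiamulin 2 7 and 0, and 1 and 1. Chchd4, Gfer and Timm8a1, of the import route into the intermembrane space, rose under lefamulin by 0.30, 0.32 and 0.32 (edgeR adjusted p = 0.00359, 0.0324 and 0.0412), and Tomm5 of the outer membrane channel fell by 0.33 under tiamulin (adjusted p = 0.0146). Of 77 mitochondrial ribosomal protein genes, 3 were raised and 0 lowered under lefamulin, with Mrpl55 and Mrps18b at 0.38 and 0.36, and 0 raised and 5 lowered under tiamulin, with Mrps25 and Mrpl18 at -0.38 and -0.34. The offsets gave 6 raised and 2 lowered under lefamulin and 1 and 12 under tiamulin, and leaving out tiamulin 2 gave 7 and 3, and 4 and 10. Beside the counts of these mitochondrial lists, 13.1% and 16.4% of all genes were called under lefamulin and tiamulin. The shares were 23.7% and 26.8% with the offsets, and 24.9% and 23.1% without tiamulin 2. Of 13 mitochondrially encoded mRNAs, 2 were raised and 1 lowered under lefamulin and 1 raised and 1 lowered under tiamulin: mt-Co1 fell by 0.80 and 0.45 (edgeR adjusted p = 8.92e-05 and 0.0048), mt-Nd2 rose by 0.96 under lefamulin, and mt-Nd3 rose by 0.82 and 0.60. With the offsets 5 were raised and 1 lowered under lefamulin and 6 and 1 under tiamulin, and without tiamulin 2 5 and 1 under either drug. Of 23 genes used as references for mitochondrial mass, 3 were raised and 4 lowered under lefamulin and 4 raised and 2 lowered under tiamulin, with medians of -0.01 and -0.03. Both alternatives gave 4 raised and 5 lowered under lefamulin, and under tiamulin the offsets gave 4 and 5 and leaving out tiamulin 2 gave 4 and 4. Ppargc1a rose by 0.53 and 0.45, Esrra by 0.25 and 0.21 and Cs, citrate synthase, by 0.19 and 0.27, and Sdha, a subunit of succinate dehydrogenase, fell by 0.23 and 0.18, each past the edgeR test under both drugs. In bulk RNA fewer transcripts per mitochondrion and fewer mitochondria per cell cannot be told apart.

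Genes whose log2 CPM followed a member most closely over the 9 libraries are given as a description, since all points share library, depth and base composition. For Hspd1 they included Atad2 and Hnrnpk (Pearson's r of 0.987 and 0.987), and for Hspe1 Malt1, Xpo1 and Arhgap11a (0.986, 0.981 and 0.976). For Hspa9 they were Serinc3, Stam2 and Cask (0.985, 0.983 and 0.981), and for Trap1 Acad12, Gm31356 and Nono (0.965, 0.960 and 0.955). Lonp1 was followed by Ccdc28a, Snx9 and Pim3 (0.991, 0.988 and 0.982), Clpp by Aurka, Plekhg6 and Mttp (0.981, 0.948 and 0.937), and Clpx by Sap30bpos, Csrp2 and C130046K22Rik (0.943, 0.912 and 0.907). Yme1l1 was followed by Ppp1cb and Rap1a, among others (0.979 and 0.970), Afg3l2 by Dna2, Rfc2 and Slc25a38 (0.968, 0.961 and 0.956), and Spg7 by Traf3ip2, Gm6978 and Robo1 (0.973, 0.952 and 0.947). Among the members themselves the lowest correlation was -0.80, of Hspa9 with Afg3l2.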

How the data were processed

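As deposited by the authors, the tables hold raw read counts of 56748 genes in 9 libraries and their FPKM. FPKM equalled count over gene length and library total to within 2.46e-05%. The submitters' processing notes list CASAVA 1.8, fastp, HISAT2 2.0.5, featureCounts 1.5.0-p3, DESeq2 1.20.0 and mm10, without role or order. Deposited positions are not those of GRCm38: 0 of 10 members and 1435 of 52036 nuclear genes share start and end with GENCODE M21. They are given as deposited. GC content came from the longest GENCODE M21 transcript and was known for 14242 of 14510 tested genes.

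Counts were scaled by TMM, filtered with filterByExpr and fitted with edgeR 4.0.16 (R 4.3.3; robust quasi-likelihood test, group as the only term, 9 libraries, Benjamini-Hochberg over all tested genes). CPM of single genes uses TMM-scaled totals, and the summed marker levels use the unscaled totals of all counts. The SE is the absolute log2 fold change over the root of F, and intervals are for a single gene, without adjustment over genes. A call is an adjusted p below 0.05. DESeq2 1.42.0, limma 3.58.1 on log2(FPKM + 1) and log2(FPKM + 0.1), other filters and scalings, offsets for GC content and length, a replicate block and leaving out each library were alternatives, 20 in all, and the offsets with tiamulin 2 left out were chosen after the data were seen. The scripts were tested on simulated data. Members and lists were chosen with earlier results of these data known. All 10 members are named. From each other list up to 4 genes are named, those called under either drug with the largest absolute log2 fold change, and Atf4, Atf5, Ddit3, Afg3l1, Oma1, Grpel1 and Dnaja3 whatever their values. Each member's 3 most correlated genes are named, except that a few genes are not reported here. No label says that the 3 libraries of a group came from separate cultures, so p-values measure the spread between libraries, which may be technical.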

Additional observations from a re-analysis of the deposited data

Results flagged for a closer look

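Lonp1 was picked out because it passed the direct test between the drugs, the only one of the 10 members to do so in the edgeR test, so the p of that test is the value that chose it and no further support. Its log2 fold change for tiamulin against lefamulin was 0.28 (SE 0.06, edgeR adjusted p = 0.0161), with no overlap between the groups. Against the shared controls it was at -0.15 under lefamulin and 0.13 under tiamulin, and neither passed the edgeR test. The lefamulin difference passed in 5 of 20 alternatives and the tiamulin difference in 1, and the latter was 0.06 without tiamulin 2. The call was lost in 5 of 20 alternatives, with edgeR adjusted p = 0.0748, 0.0867 and 0.0836 without lefamulin 1, 2 and 3, 0.0581 when the 2 drug groups were fitted alone and 0.0616 with the replicate block. Tiamulin 2 had the highest Lonp1 level of the 9 libraries, 458 CPM, and without it the difference was 0.22 (adjusted p = 0.00103).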

How the results depend on the processing

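Of the values for single members, 534 kept their direction and side of the threshold, 36 passed it anew, 21 lost it and 9 changed sign, and the cause was not tested. Member counts follow, each with the share of all genes called in the same fit. Under lefamulin the member count of 1 (13.1%) became 0 without a filter on low counts (7.21%) and under the replicate block (8.99%), 4 with the 2 groups alone (24.8%), with the offsets (23.7%) and with the replicate block with offsets (21.5%), and 5 with offsets and tiamulin 2 left out (28.0%). Leaving out a library gave 0 to 4 (6.69% to 24.9%). Under tiamulin the count of 2 (16.4%) became 1 with the 2 groups alone (1685 of 14091 genes) and under the replicate block (12.5%), 5 with offsets (26.8%), 4 with the replicate block with offsets (24.7%), 6 with offsets and tiamulin 2 left out (26.7%), and 3 by DESeq2 (17.5%) and without a filter (8.84%). It was 1 to 4 (9.85% to 23.1%) when a library was left out. Between the drugs the count of 1 (4.90%) became 2 without a filter (4.23%), 0 with the 2 groups alone (1.99%) and under the replicate block (1.81%), 3 with offsets (13.1%) and with offsets and tiamulin 2 left out (12.3%), and 0 to 1 (1.37% to 8.79%) when a library was left out. Same-number correlations of deviations lay between -0.46 and 0.02 and the others between -0.40 and 0.47. The values of -0.46 and 0.47 were of tiamulin 2 with control 2 and control 1, libraries with trends with GC content. These correlations therefore cannot decide whether replicate numbers pair the libraries. Under the replicate block the adjusted p (edgeR) was 0.0141 for Hspd1 and 0.0811 for Hspa9 under tiamulin, 0.0836 for Trap1 under lefamulin and 0.0616 for Lonp1 between the drugs.

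The member median moved under lefamulin to -0.112 with offsets, -0.113 with the replicate block with offsets and -0.112 with offsets and tiamulin 2 left out, and lay between -0.0975 and -0.0430 with a library left out. Under tiamulin it was -0.0705 with offsets and -0.0702 with the replicate block with offsets, and -0.0791 to -0.0420 with a library left out. Between the drugs it was 0.0125 with offsets and tiamulin 2 left out, and -0.0310 to 0.0359 with a library left out. The sign changed for Afg3l2 under lefamulin, to 0.0115 with offsets, 0.0113 with the replicate block with offsets and 0.0106 with offsets and tiamulin 2 left out, and for Yme1l1 under tiamulin, to 0.0233 with offsets and tiamulin 2 left out. With a library left out Yme1l1 ranged from -0.00242 to 0.0903 under lefamulin, -0.104 to 0.0811 under tiamulin and -0.150 to 0.0356 between the drugs, and Hspe1 from -0.0843 to 0.0226 under lefamulin.

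The counts over all genes were 1900, 2383 and 711 called and 219, 259 and 33 past both thresholds. Under lefamulin 3510 genes were called with the 2 groups alone, 3434 with offsets, 3116 with the replicate block with offsets, 4166 with offsets and tiamulin 2 left out, and 993 to 3708 with a library left out. Under tiamulin 3886 were called with offsets, 3585 with the replicate block with offsets, 3971 with offsets and tiamulin 2 left out, and 1462 to 3433 with a library left out. Past both thresholds were 131 and 164 genes under lefamulin and tiamulin with at least 10 counts in every library, 53 and 59 by limma with a pseudocount of 1, and 105 and 153 with 0.1. Between the drugs the called and past-both counts were 1076 and 21 by DESeq2, 1271 and 70 without a filter, 280 and 18 with the 2 groups alone, 263 and 18 under the replicate block, 443 and 10 by limma with a pseudocount of 1, 444 and 21 with 0.1, 1905 and 54 with offsets, and 1825 and 54 with offsets and tiamulin 2 left out. The replicate block with offsets called 1604, and leaving out a library gave 204 to 1309 called and 14 to 46 past both. Member counts per library ran from 594 for Clpp to 22352 for Hspd1.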
